A study of Homo sapiens with 2 samples.

Results

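The genes described are the bright members of the ZNF series, human genes whose symbol is ZNF followed by a number. They were measured in CL1-0, an established lung adenocarcinoma line that the labels give as type II alveolar. A member was selected on its measured level: its brightest probe set, among those the platform annotation assigns to 1 gene, had to average a deposited signal of at least 32 over the 2 arrays. Of 466 ZNF genes with a probe set, 330 met this minimum, 321 of them protein-coding and 9 pseudogenes. Over the whole series, 10143 genes met the same minimum. The 2 groups were CL1-0 cells transduced with a control vector and CL1-0 cells transduced with an FDFT1 vector. FDFT1 is squalene synthase, which commits the mevalonate pathway to sterols. Both groups were stable puromycin-selected populations after 2 weeks of selection, and each was measured on 1 Affymetrix array. With 1 array per group no difference has a replicate check and no p-value is given. Differences between the vectors and differences between the 2 cultures or the 2 arrays cannot be told apart.

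ZNF genes encode proteins with zinc fingers, small loops held by a zinc ion between cysteines and histidines, which are usually repeated along the protein and read DNA sequence. Many also carry a KRAB domain, which binds the co-repressor TRIM28. TRIM28 in turn brings the methyltransferase SETDB1 and silences transposable elements and imprinted regions. The family grew by repeated local duplication, so many members sit beside close relatives, most of all on chromosome 19, where 146 of the 330 members lie.

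Close relatives share promoter sequence, and this is shown for the genes that the results on chromosomes 7 and 19 turn on. The sequences come from RefSeq (GRCh38.p14), cover the 100 bases before an annotated gene start, and are written 5′ to 3′ on the strand of the gene. For a gene with several annotated starts, the start with the most copies of the box marked below was shown. Capitals mark an extended CCAAT box, TCCAATCA, which was chosen after the windows and the expression values had been seen. The first group holds the 6 members of a stretch of chromosome 7 whose brightest probe sets were all higher with the FDFT1 vector.
ZNF736 (chr7:64313861-64313960, plus strand): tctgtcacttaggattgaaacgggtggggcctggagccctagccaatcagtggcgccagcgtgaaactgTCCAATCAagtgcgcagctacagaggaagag
ZNF680 (chr7:64563072-64563171, minus strand): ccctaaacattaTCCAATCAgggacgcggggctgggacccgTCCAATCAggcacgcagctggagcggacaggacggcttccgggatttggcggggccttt
ZNF107 (chr7:64666033-64666132, plus strand): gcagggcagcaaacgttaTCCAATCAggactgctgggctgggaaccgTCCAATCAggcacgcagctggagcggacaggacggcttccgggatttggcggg
ZNF138 (chr7:64794328-64794427, plus strand): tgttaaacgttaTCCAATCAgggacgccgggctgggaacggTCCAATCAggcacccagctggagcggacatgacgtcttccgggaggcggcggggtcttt
ZNF273 (chr7:64903173-64903272, plus strand): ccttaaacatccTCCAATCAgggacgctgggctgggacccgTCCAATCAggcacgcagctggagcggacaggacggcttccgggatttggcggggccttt
ZNF92 (chr7:65373755-65373854, plus strand): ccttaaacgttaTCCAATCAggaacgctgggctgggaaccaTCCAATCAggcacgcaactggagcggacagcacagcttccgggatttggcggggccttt
The second group holds ZNF682, the member with the largest difference, and 2 others of chromosome 19 that carry the same pair of boxes, of which ZNF43 was above and ZNF93 close to 0.
ZNF682 (chr19:20039506-20039605, minus strand): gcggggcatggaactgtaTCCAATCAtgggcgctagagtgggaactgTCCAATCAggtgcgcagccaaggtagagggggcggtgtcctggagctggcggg
ZNF43 (chr19:21836183-21836282, minus strand): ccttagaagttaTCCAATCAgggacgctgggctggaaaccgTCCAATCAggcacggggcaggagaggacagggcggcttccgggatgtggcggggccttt
ZNF93 (chr19:19900846-19900945, plus strand): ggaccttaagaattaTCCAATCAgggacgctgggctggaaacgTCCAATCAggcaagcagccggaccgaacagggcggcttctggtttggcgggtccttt
The last group holds members with no copy in these bases: ZNF442, which had the largest difference below 0, and 2 members of the chromosome 7 stretch in which nearly all were lower.
ZNF442 (chr19:12365684-12365783, minus strand): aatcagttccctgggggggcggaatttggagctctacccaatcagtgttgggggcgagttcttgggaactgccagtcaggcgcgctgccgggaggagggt
ZNF282 (chr7:149195446-149195545, plus strand): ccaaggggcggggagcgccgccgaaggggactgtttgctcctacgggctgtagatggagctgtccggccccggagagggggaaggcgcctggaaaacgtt
ZNF212 (chr7:149239551-149239650, plus strand): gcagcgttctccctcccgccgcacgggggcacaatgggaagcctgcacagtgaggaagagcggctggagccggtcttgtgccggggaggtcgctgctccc
In 5 of the 6 members of the first stretch the box occurs as a pair, while ZNF736 holds 1 copy here. The distances and the shares among all genes are given with the promoter results. The genes shown do not stand for all members with or without the box. Not shown are members of chromosome 19 that hold a repeated box and lay below 0, such as ZNF85 (-0.25) and ZNF555 (-0.23). Of the 246 members with no copy in any promoter window, 121 were above 0.

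Signals were MAS5 intensities, which compare a probe set between arrays but not one probe set with another. Differences are log2 differences, FDFT1 vector minus control vector, centred so that the median difference over probe sets that reached a floor of 12.2 on both arrays was 0; the shift removed was -0.11. The arrays held 54675 probe sets each, with median signals of 12.3 and 12.1. The log2 signals of the 2 arrays correlated across genes with r = 0.991 over all genes at the minimum and 0.975 over the members, as a description, since genes are not replicates. Of 7 alveolar type II markers with a probe set 3 reached the minimum of 32, while NAPSA and SLC34A2, both defining genes of that cell type, were under the floor on both arrays. Summed over the type II list, the signal was 233 with the control vector and 210 with the FDFT1 vector. Of 5 blood and immune markers 1 reached the minimum, with sums of 85.0 and 79.3, and of 6 fibroblast and endothelial markers 1 did, with sums of 114 and 132; their part in the results was not tested. FDFT1 had no probe set under its own name in the annotation used and was not analysed here, so overexpression was not checked.

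As a family, the ZNF members lay close to 0. The median difference was 0.02, against -0.01 over all genes at the minimum, and the middle of the distribution ran from -0.16 to 0.18. The SD over members was 0.29, against 0.26 over all genes, and 302 of 330 members (91.5%) differed by under 0.5 on the log2 scale, against 94.3% of all genes. Above 0 lay 175 members (53.0%), against 48.1% of all genes. As deposited, with no centring, 212 members were lower on the FDFT1 array and 35.8% were above 0, against 28.1% of all genes, so that direction for the family as a whole depends on the scaling.

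The small excess above 0 moved with the kind of probe set. Affymetrix identifiers ending in _x_at mark probe sets with probes that also match other transcripts, a usual problem among duplicated zinc finger genes. Of the 44 members read by such a probe set 34 (77.3%) were above 0, with a median of 0.16, against 48.6% of the 605 other genes read by one, whose median was -0.01. Of the 47 members on probe sets ending in _s_at, which match several transcripts by design, 26 (55.3%) were above 0. Of the 239 members on neither kind 115 (48.1%) were above 0, with a median of -0.01, against 49.1% of 6042 other genes. With each gene read by its brightest probe set of neither kind, 262 members remained and 47.7% were above 0, against 49.8% of all genes, so the excess of the family over other genes was not kept.

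**Figure D1:**
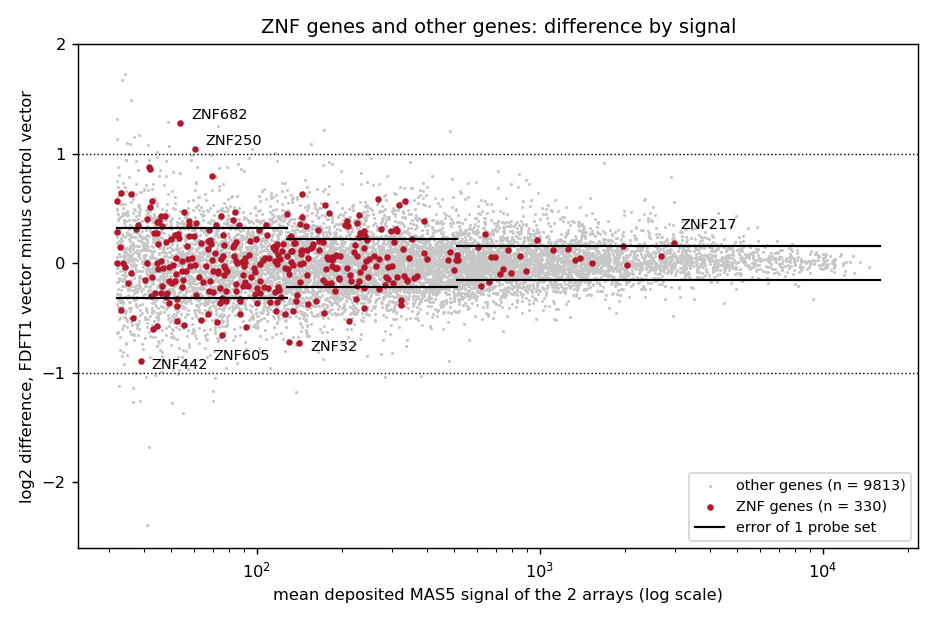
Log2 difference (vertical axis, FDFT1 vector minus control vector, centred) against the mean deposited MAS5 signal of the 2 arrays (horizontal log axis) for 330 ZNF genes in red and 9813 other genes in grey. Solid lines mark the error of 1 probe set in each of 3 signal ranges and dotted lines a 2-fold difference, past which only ZNF682 and ZNF250 lie among the ZNF genes.

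The deposited signals of the members had a median of 116, and the error of a value shrank as the signal grew. To estimate this error, the differences of a gene's brightest and next probe set were subtracted wherever both lay in the same signal range, and the SD of these gaps was divided by the square root of 2. It was 0.32 for signals of 32 to 128 (769 genes), 0.22 for 128 to 512 (890 genes) and 0.16 at or above 512 (901 genes). Over members alone it was 0.29 (48 genes), 0.23 (18 genes) and 0.07 (3 genes). Such an error covers probes and transcripts, not cultures. It is an SD and not a limit: of the 330 members, 102 exceeded it, 59 above 0 and 43 below. No such share was counted over all genes, so this count is not a result about the members. The same holds for the later counts that are set beside it. The spread among the members followed the same order: the SD of the differences was 0.39 for the 83 members with signals of 32 to 64, 0.25 for 98 at 64 to 128, 0.26 for 88 at 128 to 256, 0.24 for 37 at 256 to 512 and 0.12 for 24 at or above 512. Over the other genes in these ranges the SDs were 0.39, 0.30, 0.26, 0.23 and 0.17. The members' SD was the larger only at 256 to 512.

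The members brightest by signal differed little. ZNF217, a DNA-binding partner of CoREST-type repressor complexes that is amplified in some cancers, read 2901 with the control vector and 3054 with the FDFT1 vector, a difference of 0.18 with an error of 0.16. ZNF207 (BuGZ), which helps load a checkpoint protein onto kinetochores, read 2711 and 2642 (0.07). ZNF146, a protein made almost wholly of zinc fingers, read 2121 and 1947 (-0.02). ZNF121 read 1934 and 1997 (0.15), and ZNF706 read 1591 and 1476 (-0.0016). Of these 5, ZNF217 alone differed by more than the error of 1 probe set.

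At least 2-fold higher with the FDFT1 vector were 2 of the 330 members (0.606%), against 0.207% of all genes. At least 2-fold lower was no member, against 0.177% of all genes. These shares are not matched for signal. Both higher members had mean signals of 32 to 64, where 2 of 83 members and 13 of 1232 other genes were at least 2-fold higher. At least 2-fold lower in that range were 0 members and 12 other genes. At a threshold of 1.5-fold, 9 members (2.73%) were higher, against 1.76% of all genes, and 5 (1.52%) were lower, against 1.74% of all genes. These are counts over 2 arrays, and the members' shares differ from the background by a handful of genes.

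ZNF682 had the largest difference. Its brightest probe set read 33.0 with the control vector and 74.5 with the FDFT1 vector, a difference of 1.28 (2.43-fold) with an error of 0.32. Its other probe set lay under the minimum and ran the opposite way, from 19.95 to 9.15. The probe sets of this gene therefore differ in direction. ZNF250 read 41.5 and 79.3, a difference of 1.04 (2.06-fold), and as deposited it stayed just under 2-fold at 0.94. Its second probe set was under the floor on both arrays and gives no second reading.

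The other members among the 12 highest were mostly dim. The pseudogene ZNF702P read 30.8 with the control vector and 52.5 with the FDFT1 vector (0.87). ZNF782 read 31.2 and 52.8 (0.86), and of its dimmer probe sets one read 14.2 and 21.3 and the other 19.97 and 9.01. ZNF485 read 53.4 and 86.0 (0.79). These 3 exceeded the error of 0.32 by more than a factor of 2. Differences of 0.57 to 0.64 were found for ZNF843, ZNF611, ZNF658, ZNF92, ZNF800, ZNF850 and ZNF229. Among these, ZNF611 (118 and 170), ZNF92 (225 and 314) and ZNF850 (281 and 388) had the signals with the smaller error of 0.22. All 12 rested on a single probe set at the minimum.

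ZNF442 had the largest difference below 0. It read 51.9 with the control vector and 25.9 with the FDFT1 vector, a difference of -0.90 centred and -1.003 as deposited. ZNF32 read 182 and 102 (-0.73), and ZNF605 read 167 and 94.4 (-0.72), both with an error of 0.22. ZNF865 read 95.2 and 56.1 (-0.66). Both ZNF606 and ZNF667 had a dimmer probe set with a like reading: ZNF606 read 53.4 and 32.6 (-0.60), with -0.58 for the dimmer one, and ZNF667 read 113 and 70.4 (-0.58), with -0.52 for the dimmer one. ZNF667 is a KRAB zinc finger gene also known as MIPU1.

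The rest of the 12 lowest lay between -0.58 and -0.52. They were ZNF296, ZNF597, ZNF570, ZNF787, ZNF784 and ZNF79. ZNF787 was the brightest of these, at 258 and 166. For ZNF597, ZNF570 and ZNF79 the dimmer probe set did not show the same size, at 0.15, -0.01 and -0.10. Of the 12 lowest, 8 lie on chromosome 19, and of the 12 highest 5 do, where 44.2% of all members lie.

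**Figure D2:**
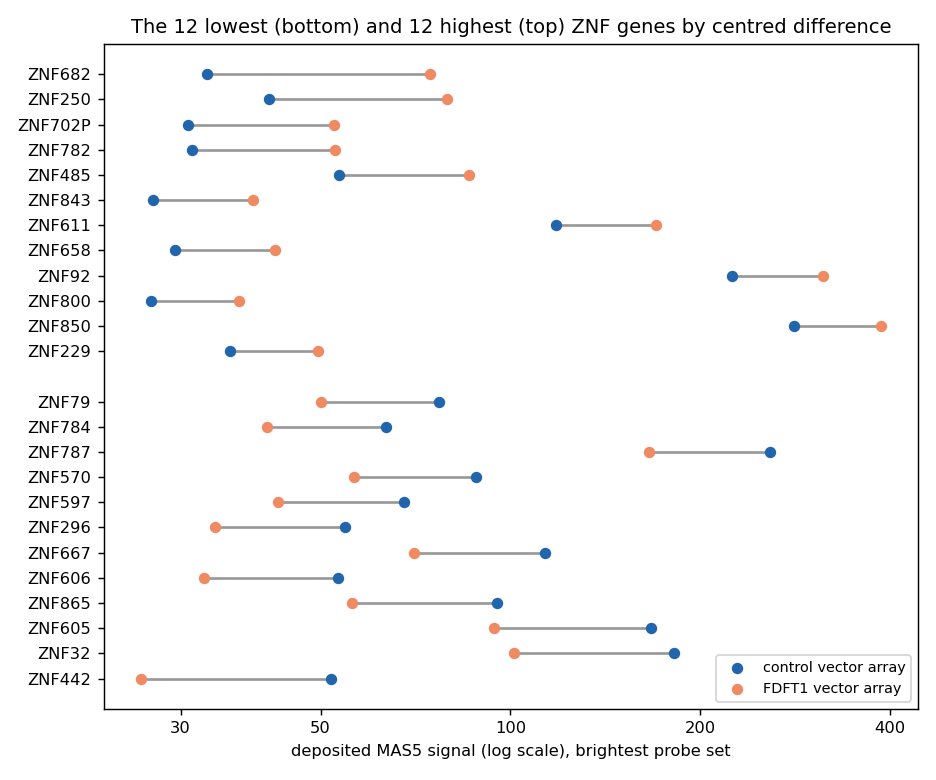
Deposited MAS5 signal (horizontal log axis) on the control vector array (blue) and the FDFT1 vector array (orange) for the 12 ZNF genes with the highest and the 12 with the lowest centred difference, 1 array each. Most pairs lie under a signal of 100, and ZNF92 and ZNF850 are the brightest of the higher genes.

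A second probe set is the nearest thing to a repeat here, although it shares the RNA and the array. Of the members, 219 had 1 probe set at the minimum and 111 had at least 2. In 57 of these 111 (51.4%) the brightest and the second lay on the same side of 0, against 57.1% of the 4721 genes with at least 2, and their differences correlated with r = 0.089 across genes, against 0.16. The median gap between them was 0.26, against 0.20 over all such genes. All probe sets at the minimum lay above 0 in 26 members and below 0 in 24.

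Among members whose probe sets all lay on 1 side, ZNF445 was the highest by the mean of its probe sets. ZNF445 is a KRAB protein that maintains methylation at imprinted regions. Its brightest probe set read 99.3 with the control vector and 117 with the FDFT1 vector (0.34), and the mean of its 2 probe sets was 0.50. ZNF320 followed with a mean of 0.36, ZNF273 with 0.27, ZNF22 with 0.26 and ZNF45 with 0.25, each over 2 probe sets. The 2 values were 0.06 and 0.66 for ZNF320 and 0.10 and 0.40 for ZNF45, so they shared a side but not a size. The brightest probe set of both genes lay above 0 only through the centring. It read 180.3 and 174.1 for ZNF320, and 220.9 and 220.3 for ZNF45. At the other end were ZNF783, with a mean of -0.65 over 2 probe sets, ZNF71 with -0.48 over 2 and ZNF609 with -0.46 over 3. ZNF71 read 151 and 102 on its brightest. ZNF827, a partner of the NuRD complex at telomeres, had -0.31 over 3 probe sets, and ZNF79 had -0.31 over 2.

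Of 25 members with roles listed, 20 differed by no more than the error of 1 probe set and 5 exceeded it. Over the whole family, 102 of 330 members exceeded theirs. Among repressors of repeats and imprints, ZNF91, which silences SVA elements, differed by 0.05 and ZNF93, which silences LINE elements, by 0.0035. ZNF445, the third of them, differed by 0.34, just past its error of 0.32. ZNF10 and ZNF808 were under the minimum. Among regulators without a KRAB box, 3 of 5 members were above 0. ZNF148, a regulator that binds GC-rich promoters, read 206 and 246 (0.36, error 0.22), with 5 of its 6 probe sets above 0. The mean of the 6 was 0.14, and without probe sets ending in _x_at or _s_at the value was 0.05, both within the error. ZNF281, a close relative of ZNF148 linked to stem cell gene control, read 940 and 1011 (0.21, error 0.16). The mean of its 3 probe sets was 0.11, within the error, and the other 2 read lower with the FDFT1 vector as deposited. ZNF143, which binds promoters and chromatin loop anchors, differed by 0.03, ZNF24 by -0.06 and ZNF335 by -0.26. ZNF76 and ZNF711 were under the minimum, and ZNF410 was not analysed here.

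Among the co-repressor partners, 5 of 11 members were above 0 and the median was -0.03. Those above 0 were ZNF703 (0.28), ZNF217 (0.18), ZNF644 (0.12), ZNF687 (0.07) and ZNF638 (0.06). Those below were ZNF592 (-0.26), ZNF532 (-0.23), ZNF609 (-0.20), ZNF451 (-0.20), ZNF827 (-0.17) and ZNF516 (-0.03). ZNF217 alone among the 11 exceeded its error. ZNF462 and ZNF521 were under the minimum. Of 6 members acting on RNA, ribosomes or the spindle, ZNF346, which binds double-stranded RNA, was the lowest, at 212 with the control vector and 165 with the FDFT1 vector (-0.26), with neither of its 2 probe sets higher. ZNF326, a splicing-linked protein, differed by 0.13, with 3 of 3 probe sets above 0 and also higher as deposited. ZNF207 (0.07), ZNF593 (0.03), ZNF598 (0.03), which marks collided ribosomes, and ZNF622 (-0.09) were within the error.

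The co-repressors that KRAB proteins depend on went both ways. Of 32 listed genes, 31 had a value at the minimum, with 14 above 0, 17 below and a median of -0.01; NCOR1 had none. None reached 2-fold, and 14 exceeded the error of 1 probe set, 7 above 0 and 7 below. Among the ZNF members, 102 of 330 exceeded theirs. TRIM28 read 1011 with the control vector and 911 with the FDFT1 vector (-0.04), and SETDB1 read 208 and 163 (-0.25), with 1 of its 2 probe sets higher. The lowest were CHD3 (-0.63), the NuRD remodeller, EHMT2 (-0.40), the G9a histone methyltransferase, MBD3 (-0.37) and MTA1 (-0.32). The highest were MTA2 (0.48), RESF1 (0.37), MBD2 (0.26) and TASOR (0.24), the last a HUSH complex subunit.

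On chromosome 19 the members lay higher than the other genes of the chromosome. Of the 146 members there, 85 (58.2%) were above 0, with a median of 0.04, while of 582 other genes of the chromosome 166 (28.5%) were above 0, with a median of -0.12. Away from chromosome 19, members and other genes were alike at medians of -0.0015 (184 members) and -0.0046 (9220 genes). Of the 4 sets, the other genes of chromosome 19 were the one that lay low, and the members there were near the level of the genome. The pooled set hides variation between single chromosomes. Of the other genes, 35.2% were above 0 on chromosome 17 (median -0.06) and 60.1% on chromosome 5 (median 0.04). These splits were chosen after the data had been seen, and they are descriptions of 2 arrays.

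The gap was present within both signal ranges and under every scaling run. For signals of 32 to 128 the medians were 0.02 (85 members) and -0.12 (197 other genes), and at or above 128 they were 0.04 (61 members) and -0.12 (385 other genes). As deposited they were -0.07 and -0.23, after quantile normalization 0.05 and -0.12, and after loess 0.06 and -0.12. Without probe sets ending in _x_at or _s_at the medians were 0.0056 (96 members, 51.0% above 0) and -0.14 (338 other genes, 26.9% above 0).

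**Figure D3:**
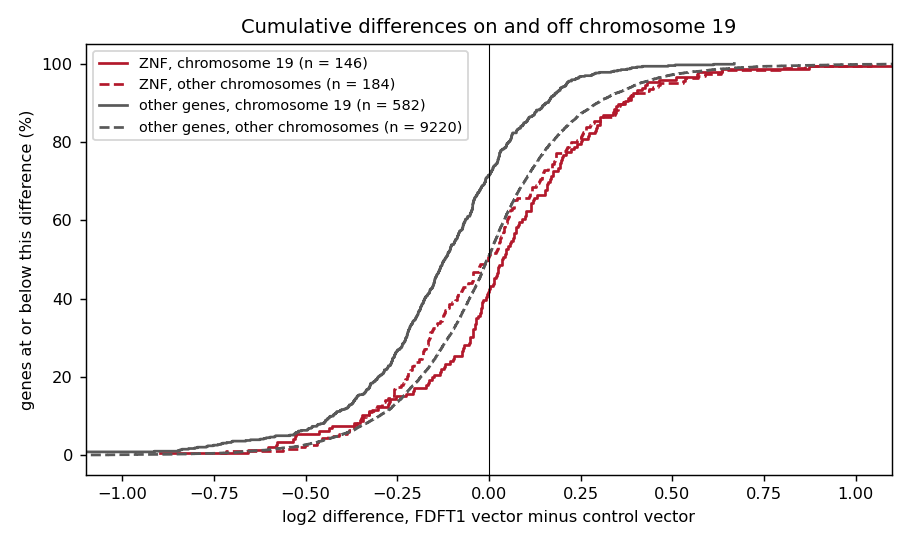
Cumulative share of genes (vertical axis, percent) by log2 difference (horizontal axis, FDFT1 vector minus control vector) for ZNF genes in red and other genes in grey, on chromosome 19 (solid) and on other chromosomes (dashed). The curve of the 582 other genes of chromosome 19 lies to the left of the rest, with a median of -0.12 against 0.04 for the 146 ZNF genes there.

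Promoter base composition differed between these sets and was recorded beside the result. In the lowest of 3 classes of promoter GC content the median difference of the chromosome 19 members was 0.05 (51 members), in the middle 0.03 (51) and in the highest -0.04 (29). For the other genes of the chromosome the medians were -0.13 (84), -0.09 (117) and -0.12 (304). Over all 289 members with a promoter window, the correlation of GC content with the difference was -0.22 across genes, against -0.085 over 8173 other genes. Its part in the gap was not tested beyond these classes.

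Along chromosome 7, which holds 25 members, 2 stretches of members lay on opposite sides. The stretches were chosen after the values had been seen, and ZNF genes under the minimum were not counted in them. In the first, the 5 members from ZNF736 to ZNF273 were immediate neighbours in gene order, and ZNF92 was not next to them. By their brightest probe sets, all 6 members from ZNF736 to ZNF92 were above 0, with a median of 0.40, but without probe sets ending in _x_at or _s_at ZNF107 lay below 0. ZNF736 read 155 with the control vector and 160 with the FDFT1 vector (0.15), and ZNF680 read 272 and 367 (0.53). ZNF107 read 158 and 203 (0.46), ZNF138 read 91.6 and 97.9 (0.20), ZNF273 read 79.6 and 94.1 (0.35), and ZNF92 read 225 and 314 (0.59). Each was also higher as deposited, by 0.04 to 0.48. Of the 6, 4 were read by probe sets ending in _x_at, and ZNF736 and ZNF92 were not. Without probe sets ending in _x_at or _s_at, 4 of the 6 had a value and 3 were above 0, with a median of 0.17. ZNF107 was the one that turned: its other probe set at the minimum read 51.1 and 41.3 (-0.20). ZNF273 stayed above 0 at 0.19, and ZNF680 and ZNF138 had no value. With the mean of each gene's probe sets all 6 were above 0, with a median of 0.23 and ZNF107 at 0.13.

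In the distal stretch from ZNF786 to ZNF775, 10 of 11 members were below 0 and the median was -0.18. ZNF467, a regulator of fat and bone cell fate, was the lowest at 281 with the control vector and 197 with the FDFT1 vector (-0.41). ZNF783 (129 and 93.9, -0.35), ZNF746 (374 and 276, -0.33), which encodes the Parkin substrate PARIS, ZNF282 (139 and 104, -0.30) and ZNF775 (112 and 85.5, -0.28) followed. ZNF212, ZNF786, ZNF767P, ZNF862 and ZNF398 lay between -0.18 and -0.14. ZNF777 was the exception at 0.14. The counts of 6 of 6 and 10 of 11 by brightest probe set were the same as deposited and after quantile normalization and loess. Without probe sets ending in _x_at or _s_at, 8 of the 9 members of the distal stretch with a value were below 0. The 3 other genes of the stretch at the minimum, KRABD3, ATP6V0E2 and REPIN1, had a median of 0.0053 with 2 above 0. Their count did move with the scaling: 1 was above 0 as deposited (median -0.10) and after quantile normalization (median -0.0086). Over the whole of chromosome 7, 240 of 469 other genes (51.2%) were above 0. Singly, ZNF467, ZNF746 and ZNF783 exceeded the error of 1 probe set, and the other 8 did not. Over the whole family, 102 of 330 members exceeded theirs.

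**Figure D4:**
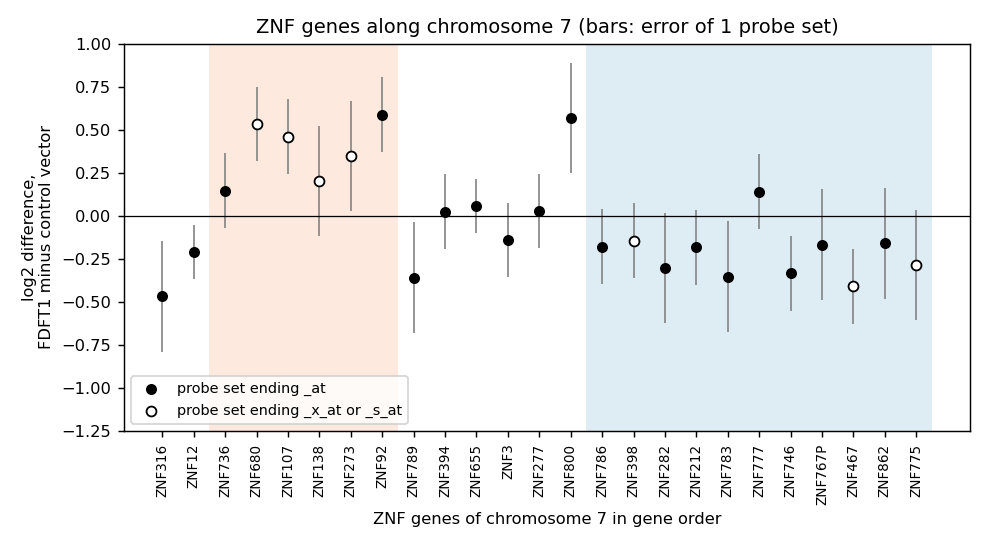
Log2 difference (vertical axis, FDFT1 vector minus control vector) of the 25 ZNF genes of chromosome 7 in gene order (horizontal axis), with bars for the error of 1 probe set and open circles for probe sets ending in _x_at or _s_at. In the orange band 6 of 6 genes lie above 0 (3 of 4 without the open-circle kinds of probe set, where ZNF107 is at -0.20) and in the blue band 10 of 11 lie below 0.

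Neighbouring members were also described over all chromosomes, without a share for neighbouring pairs of other genes beside them. Pairs within a run share members, and whether neighbours were more alike than other pairs was not tested. Members that were immediate neighbours in gene order formed 63 runs with 163 members and 100 pairs, of which 60 lay on the same side of 0; the differences of neighbours correlated with r = 0.091 across pairs, and their median gap was 0.24. Of 18 runs of at least 3 members, 3 lay wholly on 1 side. The longest, of 7, lies in the distal stretch of chromosome 7, with 6 below 0. The next, of 6 on chromosome 19, ran through ZNF776, ZNF586, ZNF552, ZNF587B, ZNF587 and ZNF814, with 5 above 0 and a median of 0.12. In a run of 5 on chromosome 12, ZNF605 at -0.72 stood beside ZNF26, ZNF84, ZNF140 and ZNF891, all 4 of which were above 0.

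Motifs were counted in the promoter windows. TCCAATCA was chosen after the windows and the expression values had been seen, so its excess in members is a description and not a test. The other motifs were not part of the planned comparisons either. A window covers 250 bases before and 50 after a gene start, and a gene was counted where any of its windows held the letters on either strand. RefSeq gave a window for 289 of the 330 members. TCCAATCA was found in 43 of them (14.9%), against 1.70% of 8173 other genes at the minimum and 1.90% of all 27305 genes with a window. At least 2 copies were found in 21 members (7.27%), against 6 other genes (0.0734%) and 0.271% of all genes with a window. This motif contains CCAAT, which alone was found in 51.9% of members and 43.9% of other genes.

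The ETS core CCGGAAG was found in 45.0% of members, 23.9% of other genes and 12.2% of all genes with a window. TTCCCAGA was found in 13.8% of members, 3.24% of other genes and 3.41% of all. The GC box GGGCGG was less frequent in members than in other genes at the minimum, at 69.2% and 80.0% (48.3% of all), and TATAAA was found in 4.84%, 7.40% and 14.0%. The sterol regulatory element core TCACCCCAC was found in 1 member (0.346%), against 0.514% of other genes and 0.535% of all. A match is a string of letters and not a shown binding site.

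In 16 of the 21 members with a repeated box the first copies lay 27 to 31 bases apart, with a median of 29, mostly within the last 100 bases before the start. Of the 21, 13 were above 0 and 8 below, and the median difference was 0.15. ZNF682, ZNF92, ZNF680 and ZNF107 led them, and ZNF85 (-0.25), ZNF678 (-0.23) and ZNF555 (-0.23) were the lowest. The pair of boxes in ZNF85 has the same distance of 29 bases as in ZNF682 and lies at the same positions, -82 and -53. Of the 21, 11 lie on chromosome 19, 5 on chromosome 7, and 10 were read by probe sets ending in _x_at or _s_at. Without the 5 genes of chromosome 7, 8 were above 0, 8 below and the median was 0.00042, so the higher median of the set rested on that stretch.

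**Figure D5:**
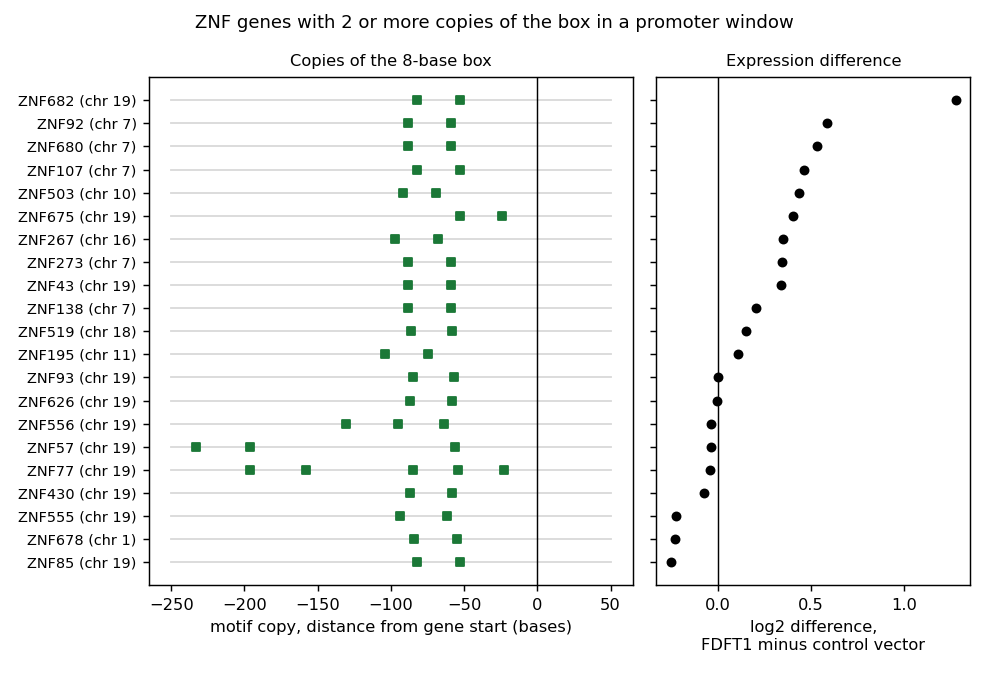
Left, position of each copy of the 8-base box (green squares) relative to the gene start (horizontal axis, bases) in the 21 ZNF genes with at least 2 copies, 1 window per gene; right, their log2 difference (FDFT1 vector minus control vector). Genes with the same spacing of 29 bases lie on both sides of 0, from ZNF85 at -0.25 to ZNF682 at 1.28.

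The minimum of 32 set which genes were described. Just inside it were ZNF800, at a mean signal of 32.03 (26.9 and 37.1), ZNF821, at 32.03 (30.03 and 34.03), and ZNF626, at 32.2 (33.4 and 30.95). Just outside were ZNF165, at 31.8 (35.1 and 28.5), ZNF431, at 30.8 (32.6 and 29.1), and ZNF41, at 30.6 (30.4 and 30.8). Of the 136 ZNF genes under the minimum, 65 were under the floor on both arrays.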

How the data were processed

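RNA of 1 control vector and 1 FDFT1 vector sample was measured on 1 array each. The deposited values are signal intensities on a linear scale, made by the authors with MAS5 per the submitters' processing notes. Neither its version nor its scaling target is given in the sources used here. MAS5 scales whole arrays; the trimmed means of the deposited intensities were 151 and 142. Each probe set was named through the platform annotation; 41091 of 54675 listed 1 gene. All 330 members matched RefSeq by Entrez identifier.

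The FDFT1 signals were divided by the median ratio over probe sets at or above the floor on both arrays. As floor served the median signal of both arrays, 12.2, to which lower values were raised before taking log2. A gene took its brightest probe set. Members and lists were chosen with earlier results of these data known. Named genes were the 12 highest and 12 lowest differences, the 5 highest and lowest means among members with several agreeing probe sets, the 5 brightest, 3 on each side of the minimum, role lists, 10 co-repressors and the longest runs; chromosome 7 genes and those named for a motif or a run were chosen after their values were seen. Python 3.11.15, numpy 2.4.6, pandas 2.3.3 and statsmodels 0.14.6 were used, and the steps were tested on simulated data. Alternatives were other scalings, floors, minimums and probe sets. A planned split by KRAB domain was not run, as no protein sequences were used here.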

Additional observations from a re-analysis of the deposited data

How the results depend on the processing

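With 1 array per group, signal over background and the number of arrays limit every value. Counts of 2-fold members moved with the settings. The 2 higher members became 9 at 1.5-fold, 1 as deposited (12 of all genes, from 21), 0 with the floor at the 75th percentile (100.1; 3 of all genes) and 0 at a minimum of 64 (6 of all genes). The 0 lower members became 5 at 1.5-fold, 1 as deposited (28 of all genes, from 18) and 3 of 375 at a minimum of 16 (0.80%, against 0.681% of all genes). The family median of 0.02 was -0.083 as deposited. With the higher floor many members have no difference. The share above 0, 53.0%, was 35.8% as deposited (28.1% of all genes) and 32.7% with that floor, below the 39.0% of all genes. Quantile normalization and loess (both 53.9%), no floor (53.0%), probe set means (54.8%) and minimums of 16 (51.5%) and 64 (53.4%) moved it little. Without probe sets ending in _x_at or _s_at it was 47.7% and the median -0.01, below that of all genes. Of 566 values of 87 named members under these alternatives, 14 moved by more than the probe set error, none under quantile normalization or loess. Removing the centring shifts every member by the same 0.11. That is less than the smallest error of 0.16, so no value as deposited could count as moved. Members with both signals under the higher floor, ZNF682 and ZNF250 among them, had no value there and were not counted for it. The 2-fold members ZNF682 and ZNF250 have 1 probe set at the minimum, so the probe set alternatives could not move them. Under those, 8 other named members changed side of 0, among them ZNF107 (0.46 to -0.20), ZNF789 (-0.36 to 0.04), ZNF587 (-0.17 to 0.14) and ZNF12 (-0.21 to 0.0017). As deposited 15 changed side. The planned comparison of members with and without a KRAB domain was not run. No paired analysis was possible because each group has 1 sample.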

Other observations

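Genes of like families, named by other prefixes, were also near 0. Of 32 ZBTB genes, which join zinc fingers to a BTB domain, 17 were above 0 with a median of 0.03. Of 15 ZFP genes 8 were above 0, with a median of 0.04. Of 11 ZSCAN genes, which carry a SCAN domain, 9 were above 0 with a median of 0.07, and of 6 ZKSCAN genes, which carry SCAN and KRAB domains, 2 were above 0 with a median of -0.09. The 9 ZNF pseudogenes had a median of 0.05, with 5 above 0, from -0.27 for ZNF137P to 0.87 for ZNF702P.

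Among the ZNF genes under the minimum, 3 of 136 were at least 2-fold lower and 0 at least 2-fold higher. All 3 had a mean signal of 16 to 32, where 60 of 1303 genes of any name (4.60%) were at least 2-fold lower and 53 (4.07%) higher, against 3 of 45 ZNF genes (6.67%) lower, so the count is near the background at these signals. ZNF414 read 46.7 with the control vector and 11.7 with the FDFT1 vector, the latter under the floor. ZNF524 read 39.1 and 14.1, and the pseudogene ZNF204P read 38.5 and 17.8. These genes were chosen after their values were seen.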
